A study of Mus musculus with 5 samples.

Results

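Of 17818 gene symbols measured in mouse heart RNA, 10 genes whose transcripts tell the upper chambers of the heart from the lower ones were followed here. They were 9 genes known for higher levels in atria (Myl4, Myl7, Sln, Bmp10, Dkk3, Stard10, Clu, Nr2f2 and Gja5) and 1 known for higher levels in ventricles (Irx4). They were chosen by their measured levels in the first of the Tet2 vector libraries, which carried atrial transcripts at levels that no other library showed. The difference between that library and the rest is therefore a description and was not tested. In that library Myl4, Bmp10 and Myl7 stood at 270, 187 and 176 CPM (counts scaled to the library total), and none of them exceeded 1.65 CPM in any of the other 4 libraries. Irx4 lay between 27.2 and 36.4 CPM in all 5.

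Each library came from the heart of a male mouse 12 months after a bone marrow transplant. There were 2 libraries of Tet2+/- mice given oridonin, a plant diterpenoid, for 2 months, 2 libraries of Tet2+/- mice given the vector for the same time, and 1 library of WT mice given the vector. Tet2 itself had 9.435 and 17.9 CPM in the oridonin libraries, 19.2 and 7.76 CPM in the vector libraries and 15.6 CPM in WT, so its level did not separate the genotypes. The labels do not say whether marrow, host or both carried the Tet2+/- allele, and they name no chamber of the heart. Nothing in the labels says that the libraries of a group came from separate animals, so a p-value measures only the spread between these libraries, which may be technical. Libraries held 14574823 to 15535778 counts, so that 3 counts, the least level read as present, corresponded to 0.193 to 0.206 CPM. Mitochondrially encoded genes made up 30.2% and 28.2% of counts in the oridonin libraries, 26.8% and 29.7% in the vector libraries and 23.6% in WT. The summed level of 13 cardiomyocyte genes, such as Myh6 and Tnnt2, was 64448 and 72909 CPM in the oridonin libraries, 68448 and 55192 CPM in the vector libraries and 66097 CPM in WT, so every library held heart muscle RNA.

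Atrial and ventricular muscle cells use different copies of the same contractile parts. Myosin binds a pair of light chains, and in the adult mouse heart the atrium draws on Myl4 and Myl7 where the ventricle draws on Myl3 and Myl2; both atrial forms are also made in the ventricle of the embryo. Other atrial genes act on calcium uptake, on secreted signals and on transcription: sarcolipin (Sln) restrains the calcium pump of the sarcoplasmic reticulum, Bmp10 is a secreted growth factor, and the nuclear receptor Nr2f2 (COUP-TFII) sustains atrial identity, while the homeobox factor Irx4 acts in the ventricle.

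RefSeq held the start region of 7 of the 10 genes, from 250 bases before to 50 bases after the start of the gene (build GRCm38.p6). Sln, Dkk3 and Clu had none. Of the 6 atrial genes with a region, those of the 3 with the highest levels in the first vector library are shown, with that of Irx4 as the ventricular gene. Myl7 lies at chr11:5898733-5899032 (minus strand), Bmp10 at chr6:87428744-87429043 (plus strand), Myl4 at chr11:104550413-104550712 (plus strand) and Irx4 at chr13:73260247-73260546 (plus strand). Capitals mark matches on either strand to GATAA, the core of sites bound by GATA factors, to CAAGTG, a site of NKX2-5, and to the CArG box of serum response factor.
Myl7: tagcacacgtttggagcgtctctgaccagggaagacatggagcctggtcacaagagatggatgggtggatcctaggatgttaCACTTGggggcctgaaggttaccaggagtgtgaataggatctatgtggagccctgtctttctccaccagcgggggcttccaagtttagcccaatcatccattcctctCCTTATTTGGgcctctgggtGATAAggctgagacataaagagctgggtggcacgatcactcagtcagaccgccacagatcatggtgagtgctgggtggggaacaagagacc
Bmp10: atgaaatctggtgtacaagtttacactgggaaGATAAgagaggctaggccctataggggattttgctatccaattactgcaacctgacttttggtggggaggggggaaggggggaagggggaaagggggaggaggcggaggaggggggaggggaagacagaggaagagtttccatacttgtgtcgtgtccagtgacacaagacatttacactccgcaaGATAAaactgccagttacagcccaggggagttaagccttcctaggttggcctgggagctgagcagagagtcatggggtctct
Myl4: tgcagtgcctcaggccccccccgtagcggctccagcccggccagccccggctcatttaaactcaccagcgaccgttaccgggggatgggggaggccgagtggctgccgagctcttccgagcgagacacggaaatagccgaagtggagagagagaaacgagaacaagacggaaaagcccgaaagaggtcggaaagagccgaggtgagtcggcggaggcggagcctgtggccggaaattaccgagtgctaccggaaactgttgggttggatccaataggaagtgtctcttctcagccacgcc
Irx4: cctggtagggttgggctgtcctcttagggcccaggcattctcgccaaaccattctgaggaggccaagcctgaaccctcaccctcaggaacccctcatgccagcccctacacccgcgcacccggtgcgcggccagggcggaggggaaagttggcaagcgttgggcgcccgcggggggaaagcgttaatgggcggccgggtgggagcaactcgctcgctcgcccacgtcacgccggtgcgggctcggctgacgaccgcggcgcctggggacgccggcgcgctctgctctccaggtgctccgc

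The Myl7 region held 1 match to each of the 3 motifs. Counted from the start of the gene, CAAGTG lay at -168, the CArG box at -61 and GATAA at -41. The Bmp10 region held GATAA at -218 and -32, and the Stard10 region, not shown, held it at -151. The Myl4 and Irx4 regions held none of the 3 in these windows. Over all 32851 start regions of the same length, GATAA was found in 25.4%, CAAGTG in 13.6% and the CArG box in 1.63%. The E-box CANNTG, which the CAAGTG match of Myl7 also spells, was found in 4 of the 7 regions and in 72.3% of all. The TATA box TATAAA, the T-box motif AGGTGT, the nuclear receptor motif AGGTCA and the MEF2 box were found in none of the 7, against 13.6%, 13.7%, 16.3% and 1.86% of all regions. These are matches of letters, and no binding was measured.

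The atrial light chains stood high in the first vector library alone. Myl4, the atrial essential light chain (chr11, 104550663 to 104595753, GRCm38), had 1.64 and 1.65 CPM in the oridonin libraries, 270 and 1.30 CPM in the vector libraries and 1.62 CPM in WT. The first vector library had 4198 counts of it, and each of the other 4 had 20 to 24.2. The ratio between the vector replicates was 207 (exact 95% interval 134 to 340, which covers counting error only). Between the remaining libraries Myl4 was nearly level, and the oridonin, second vector and WT libraries all lay within 1.30 and 1.65 CPM. Its annotated exons overlap a small RNA gene, Gm22000, on the opposite strand; strand is not stated for these libraries, so reads of overlapping genes cannot be told apart.

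Myl7, the atrial regulatory light chain (chr11, 5896637 to 5898782), had 0.0684 and 0.0686 CPM in the oridonin libraries, 176 and 0.0652 CPM in the vector libraries and 0 in WT. In counts this was 1 and 1, then 2739 and 1, then 0, so outside the first vector library Myl7 stayed under the 3 counts read as present. The ratio between the vector replicates was 2704 (exact 95% interval 485 to 106822). This wide interval comes from the single count in the second vector library.

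Set against their ventricular counterparts, the atrial chains were a minor share of light chain RNA even in that library. Myl7 made up 3.44% of the counts of Myl7 and Myl2 together in the first vector library (Wilson 95% interval 3.31% to 3.57%), and at most 0.00109% in each of the others. In WT no count of Myl7 was seen beside 69246 of Myl2, where the Wilson interval allows up to 0.00555%. Most WT values were not whole counts and were rounded for this, so that interval is only approximate. Per kilobase of the principal transcript, Myl7 stood at 299 CPM and Myl2 at 5570 CPM there, a share of 5.09%. Myl4 made up 6.46% of the counts of Myl4 and Myl3 in the first vector library (Wilson 95% interval 6.28% to 6.66%), and 0.0226% to 0.0357% in the other 4. Per kilobase Myl4 stood at 287 CPM against 4173 CPM of Myl3, a share of 6.43%. The ventricular chains were the main ones in every library.

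**Figure D1:**
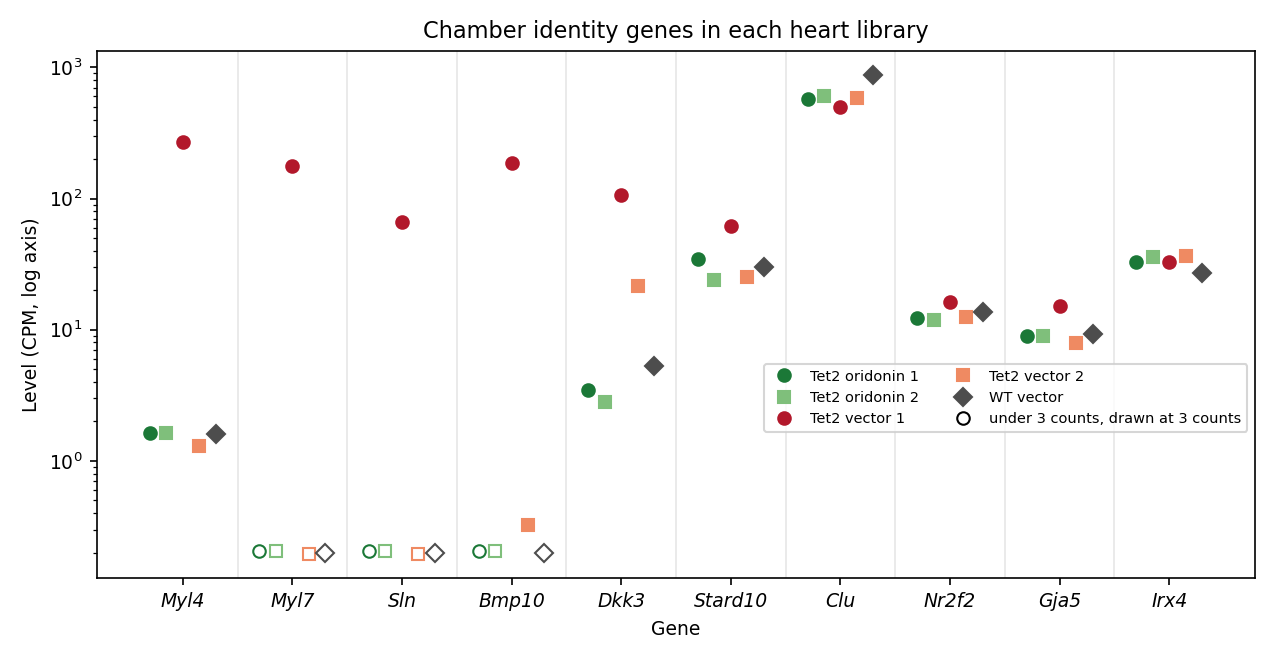
Level of each of the 10 genes (x axis) in CPM (log y axis) in the 5 libraries, 1 point per library, with open symbols for values under 3 counts drawn at 3 counts. Myl4, Myl7, Sln and Bmp10 reached 66.6 to 270 CPM in the first vector library and at most 1.65 CPM elsewhere, while Irx4 stayed within 27.2 to 36.4 CPM.

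Sarcolipin and Bmp10 followed the light chains. Sln (chr9, 53850164 to 53854560) had 0 and 0.0686 CPM in the oridonin libraries, 66.6 and 0 CPM in the vector libraries and 0 in WT. Its 1034 counts in the first vector library stood against a single count in the other 4 together, and it was at least 340-fold higher in the first than in the second vector library, with 3 counts per library as the floor. Bmp10 (chr6, 87428994 to 87437677) had 0.0684 and 0 CPM in the oridonin libraries, 187 and 0.326 CPM in the vector libraries and 0.0667 CPM in WT. With 2899 and 5 counts, the ratio between the vector replicates was 572 (exact 95% interval 245 to 1764). Only the vector libraries therefore held Bmp10 at 3 counts or more.

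Sln is also a gene of skeletal muscle, so markers of that tissue were read beside it. Mylpf, Tnni2, Tnnt3 and Actn3, genes of fast skeletal fibres, were at or under 1.04 CPM in all 5 libraries, and Myh1 and Myh2 had at most 1 count in any. Myl1 had 22.2 and 22.0 CPM in the oridonin libraries, 52.5 and 9.06 CPM in the vector libraries and 20.3 CPM in WT. Of the 9 listed markers 7 were present in the table, and their summed level was 23.9 and 24.0 CPM in the oridonin libraries, 54.8 and 11.1 CPM in the vector libraries and 22.0 CPM in WT, most of it Myl1.

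Dkk3, unlike those 4 genes, stood above the other groups in both vector libraries. Dkk3 codes for a secreted protein of the Dickkopf family (chr7, 112116017 to 112159057). It had 3.49 and 2.81 CPM in the oridonin libraries, 107 and 21.7 CPM in the vector libraries and 5.30 CPM in WT. The groups did not overlap, and WT lay between them. The first vector library was 4.93 times the second (exact 95% interval 4.38 to 5.56), and the second, with 333 counts, was above the WT and oridonin libraries. Fibroblast genes were read beside it. Limma called 0 of all 12734 genes in each of the 3 comparisons, and so none of the 9 listed. For oridonin against vector all 9 were lower in oridonin, each with an unadjusted limma p under 0.05, beside 331 of 12734 genes. For vector against WT 7 were higher and 2 lower, and 5 had such a p, beside 1221 of 12734. The summed level of the 9, Gsn, Dcn and Col3a1 among them, was 2021 and 1879 CPM in the oridonin libraries, 3220 and 3288 CPM in the vector libraries and 2939 CPM in WT. The sums were highest in the vector libraries, and the part of fibroblasts in the Dkk3 level was not tested.

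The remaining atrial genes differed less between libraries than Dkk3, whose highest library was 38.1 times its lowest. That ratio was 2.60 for Stard10, 1.91 for Gja5, 1.77 for Clu and 1.37 for Nr2f2. Stard10, a lipid transfer protein (chr7, 101317086 to 101346626), had 34.5 and 23.8 CPM in the oridonin libraries, 61.9 and 25.4 CPM in the vector libraries and 30.3 CPM in WT. Gja5, the gap junction protein connexin 40 of atrial muscle, conduction fibres and arterial endothelium (chr3, 96904693 to 97077416), had 8.96 and 8.92 CPM in the oridonin libraries, 15.1 and 7.89 CPM in the vector libraries and 9.26 CPM in WT. For both, the first vector library was the highest and the second lay with or below the others. The ratio between the vector replicates was 2.43 for Stard10 (exact 95% interval 2.16 to 2.74) and 1.91 for Gja5 (1.53 to 2.40). Exons of Gja5 overlap Gpr89 on the opposite strand, which had 14.4 and 14.3 CPM in the oridonin libraries, 19.0 and 16.4 CPM in the vector libraries and 18.3 CPM in WT, so some of these reads may belong to either gene. The summed level of 8 arterial endothelial genes was 192 and 175 CPM in the oridonin libraries, 161 and 181 CPM in the vector libraries and 222 CPM in WT. The first vector library, the highest for Gja5, had the lowest sum, but of the 8 genes 4 were lowest and 2 highest there. The part of arterial endothelium in the Gja5 level was not tested.

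Nr2f2 (chr7, 70351944 to 70366735) had 12.2 and 11.9 CPM in the oridonin libraries, 16.2 and 12.5 CPM in the vector libraries and 13.6 CPM in WT. It was highest in the first vector library, at 1.30 times the second (exact 95% interval 1.07 to 1.58). Nr2f2 is also active in venous and lymphatic endothelium. The summed level of 6 venous genes, Vwf and Ephb4 among them, was 244 and 307 CPM in the oridonin libraries, 346 and 242 CPM in the vector libraries and 227 CPM in WT. The sum of 6 lymphatic genes, Prox1 and Lyve1 among them, was 94.3 and 124 CPM in the oridonin libraries, 156 and 84.0 CPM in the vector libraries and 127 CPM in WT. Both sums were highest in the library in which Nr2f2 was highest, but only 3 of the 6 genes of each list were highest there. Vwf had 133 CPM there and at most 70.1 CPM elsewhere. Ephb4 was highest in the second oridonin library, at 80.3 CPM against 66.6 CPM in the first vector library. The part of these endothelial cells in the Nr2f2 level was not tested. B130024G19Rik, which overlaps Nr2f2 on the opposite strand, had at most 1.09 CPM.

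Clu, clusterin, a secreted chaperone made by atrial muscle and by many other cells (chr14, 65968483 to 65981547), was the one atrial gene of the 9 with its lowest level in the first vector library. It had 574 and 610 CPM in the oridonin libraries, 496 and 588 CPM in the vector libraries and 879 CPM in WT. The first vector library was at 0.842 times the second (exact 95% interval 0.817 to 0.868), and WT was above all 4 Tet2 libraries.

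Irx4 (chr13, 73260479 to 73269608) was close to even across libraries, with the highest 1.34 times the lowest. It had 33.1 and 35.8 CPM in the oridonin libraries, 32.6 and 36.4 CPM in the vector libraries and 27.2 CPM in WT. The oridonin and vector libraries overlapped, and WT was the lowest. The first vector library was 0.895 times the second, with an exact 95% interval of 0.792 to 1.01 that includes equality.

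How far the first vector library stood from the others was set against all genes. Genes with 1 CPM or more in any library numbered 13183, and 10 of them (0.0759%) were at least 10 times higher in the first vector library than in the highest of the other 4, with values under 3 counts set to 3 counts. No gene met that measure in any of the other 4 libraries. On it Myl7 (857), Bmp10 (572), Sln (323) and Myl4 (164) ranked 1 to 4 of all genes. Dkk3 ranked 28, Stard10 286, Gja5 391, Nr2f2 1641, Irx4 6618 and Clu 12197. Of the members, Myl4 at 164 was thus the last inside the 10-fold line, and Dkk3 at 4.93 and Stard10 at 1.79 were the first outside it. Of the 10 members 8 were highest in the first vector library. Of the 7 members that passed the filter for testing 5 were, against 31.4% of the 12734 genes that reached 1 CPM in 2 or more libraries. Between the vector replicates the median log2 difference of those 12734 genes was 0.16, with an SD of 0.64, against an SD of 0.49 between the oridonin replicates. All these values are from the library that led to the choice of the genes and are given as a description. In heart tissue, more atrial muscle cells and more atrial RNA per cell cannot be told apart.

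**Figure D2:**
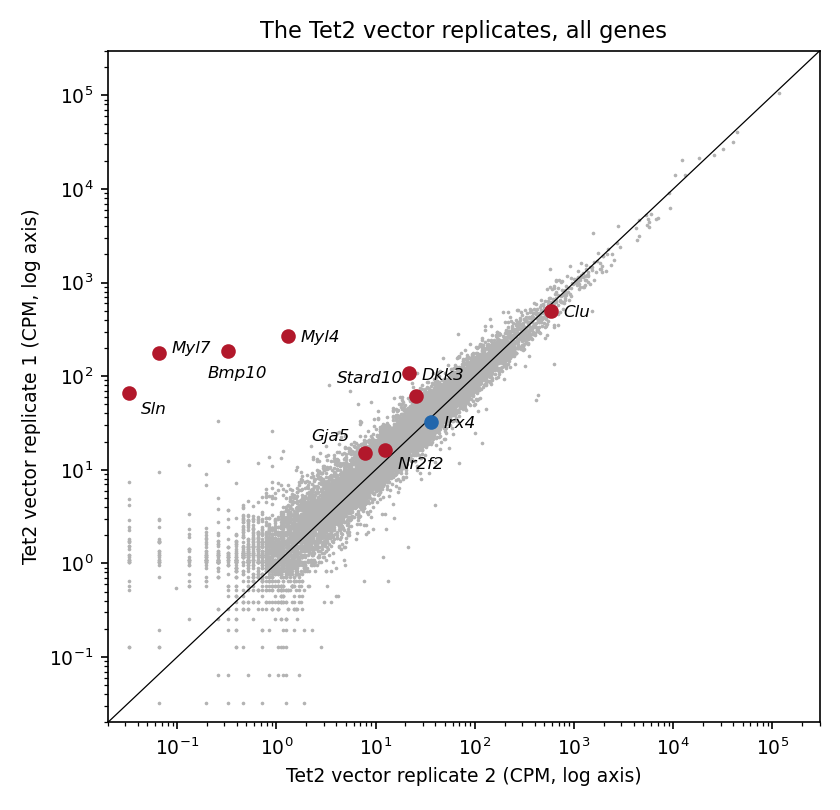
Levels in the second (x axis) and the first (y axis) Tet2 vector library in CPM on log axes, 1 grey point per gene with at least 1 CPM in any library, with the 9 atrial genes in red, Irx4 in blue and the line of equality; values of 0 are drawn at the level of a fraction of 1 count. Sln, Myl7, Bmp10 and Myl4 lie far above the line, Dkk3 less so, and Clu and Irx4 lie close to it.

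The other 6 genes that met the 10-fold measure were no members. Mybphl, a myosin-binding protein of atrial and conduction muscle, had 0.0684 and 0 CPM in the oridonin libraries, 33.0 and 0.261 CPM in the vector libraries and 0.400 CPM in WT. Hamp, the iron hormone hepcidin, had 146 counts in the first vector library and at most 1 in the others. Fgf12, an intracellular regulator of sodium channels, had 7.21 CPM there and at most 0.479 CPM elsewhere. Tmem163, Rxfp1 (the relaxin receptor) and F5 (a clotting factor) stood at 7.47, 4.18 and 2.96 CPM there, and at most 0.206 CPM elsewhere. Among genes with at least 10 CPM in the first vector library and no membership, those most like the members in this ratio over 5 libraries were Mybphl (82.4), the kinase Sbk3 (7.72), the junction protein Plekha7 (6.92), the noncoding RNA H19 (6.24), the platelet chemokine Ppbp (5.55), the calcium channel subunit Cacna2d2 (4.91), the kinetochore gene Cenpf (4.78), Rp1 (4.46), the carbonic anhydrase Car3 (4.14) and the natriuretic peptide Nppa (4.12).

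A wider set of chamber genes was read in the same libraries. Of 14 other genes known for higher levels in atria, 9 were highest in the first vector library, and their summed level was 997 and 1040 CPM in the oridonin libraries, 1708 and 1009 CPM in the vector libraries and 1486 CPM in WT. Nppa, atrial natriuretic peptide, had 12.3 and 16.3 CPM in the oridonin libraries, 281 and 68.3 CPM in the vector libraries and 42.5 CPM in WT. Pam, the enzyme that amidates peptides in atrial granules, had 486 and 534 CPM in the oridonin libraries, 846 and 528 CPM in the vector libraries and 885 CPM in WT. The first vector library and WT were thus close in Pam, but not in Nppa.

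Potassium channel genes of the atrium did not share an order. Kcnj3 and Kcnj5, the subunits of the acetylcholine-gated channel, were highest in the first vector library. Kcnj3 had 65.6 and 69.8 CPM in the oridonin libraries, 110 and 41.1 CPM in the vector libraries and 58.3 CPM in WT. Kcnj5 had 56.7 and 72.7 CPM in the oridonin libraries, 88.4 and 41.3 CPM in the vector libraries and 76.2 CPM in WT. Kcnk3 and Kcna5 were lowest in the first vector library, at 234 and 21.0 CPM, and highest in WT, at 308 and 51.3 CPM. For the 11 of the 14 genes that passed this filter, the median log2 difference between the first and the second vector library was 1.10, and 8 were above 0, beside a median of 0.16 and a share of 62.2% over all genes tested.

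Ventricular genes leaned the other way between the vector replicates. Of 10 other ventricular genes, 1 was higher in the first than in the second vector library, and the median log2 difference was -0.34. Their summed level was 16801 and 15783 CPM in the oridonin libraries, 13557 and 18211 CPM in the vector libraries and 12459 CPM in WT, so that WT, and not the first vector library, was the lowest. Myl2 had 6819 and 6310 CPM in the oridonin libraries, 4952 and 6988 CPM in the vector libraries and 4616 CPM in WT. Fhl2, a LIM-domain protein of the sarcomere, had 1891 and 2088 CPM in the oridonin libraries, 2028 and 2390 CPM in the vector libraries and 1094 CPM in WT. Myh7, the slow myosin heavy chain, had 70.7 and 129 CPM in the oridonin libraries, 128 and 320 CPM in the vector libraries and 122 CPM in WT. Pln, which restrains the calcium pump in the ventricle, was nearly even, at 1538 to 1976 CPM over the 5 libraries.

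**Figure D3:**
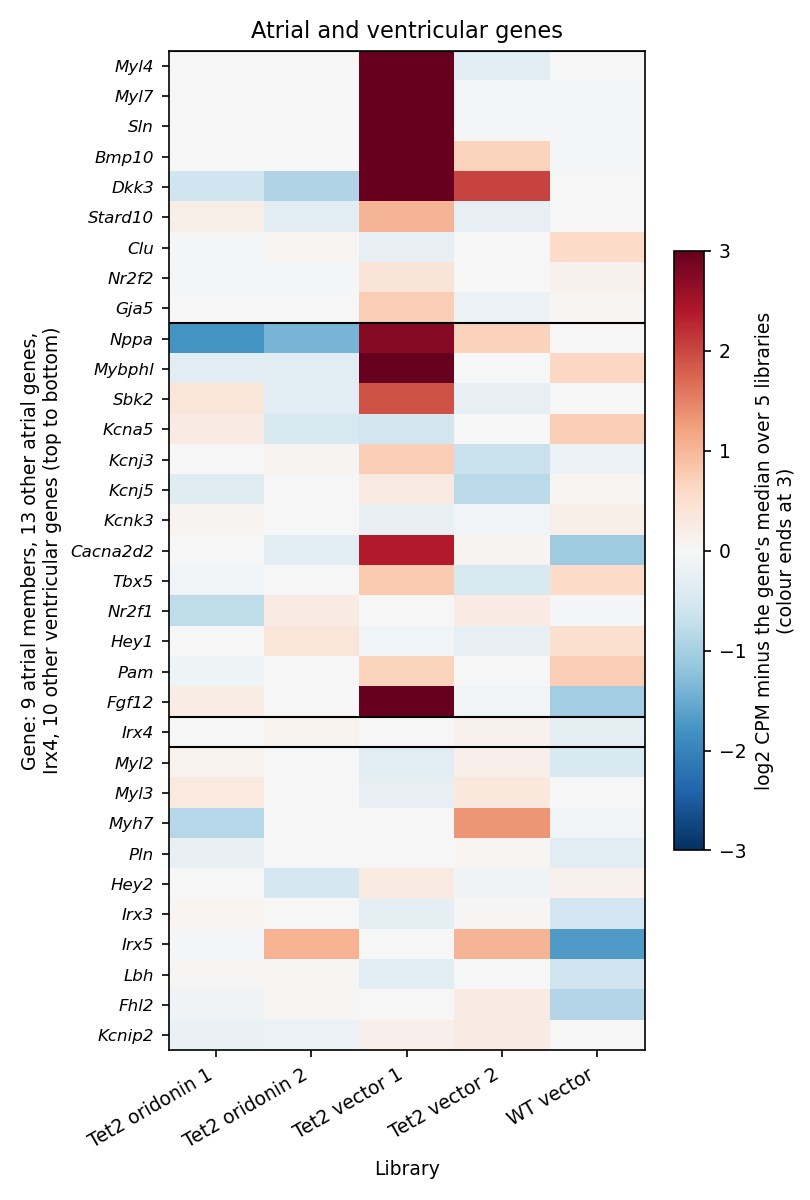
Levels of the 9 atrial members, those 13 of the 14 other atrial genes that reached 1 CPM in a library, Irx4 and 10 other ventricular genes (rows, top to bottom) in the 5 libraries (columns), as log2 CPM minus the median of the gene over the libraries, with values under 3 counts set to 3 counts and colours ending at 3. The column of the first vector library is red for Myl4 to Dkk3 and for Nppa, Mybphl, Sbk2, Cacna2d2 and Fgf12, and is near 0 for Irx4.

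Markers of structures beside the working muscle were read in the same libraries. Only some passed the filter of 1 CPM in 2 or more libraries. They were 8 of 10 sinoatrial node, 4 of 6 ventricular conduction and 2 of 7 fat cell genes. A further 6 of 7 smooth muscle, 5 of 9 nerve and glia and 2 of 7 mesothelial genes passed. The counts that follow, over whole lists, are thus not on the same footing as the 31.4% of all genes tested that were highest in the first vector library. Of 10 sinoatrial node genes found in the table, 5 were highest there, with sums of 136 and 143 CPM in the oridonin libraries, 168 and 139 CPM in the vector libraries and 135 CPM in WT; Smoc2, the most abundant, was highest in the second vector library. Of 6 ventricular conduction genes, 5 were highest in the first vector library, with sums of 27.6 and 20.6 CPM in the oridonin libraries, 60.4 and 16.0 CPM in the vector libraries and 12.8 CPM in WT. Etv1, a transcription factor of fast-conducting fibres and atrial muscle, had 9.64 and 9.13 CPM in the oridonin libraries, 22.9 and 6.98 CPM in the vector libraries and 8.09 CPM in WT. All 7 fat cell genes were highest there too, with sums of 0.410 and 7.41 CPM in the oridonin libraries, 22.1 and 0.522 CPM in the vector libraries and 1.12 CPM in WT. Of 7 smooth muscle genes, 3 were highest there, and the sum was 416 and 257 CPM in the oridonin libraries, 716 and 376 CPM in the vector libraries and 323 CPM in WT, with Acta2 at 215 and 88.6, then 480 and 214, then 105 CPM. Of 9 nerve and glia genes, 5 were highest there, though Stmn2, the most abundant, was highest in the second vector library, and they summed to 20.6 and 17.2 CPM in the oridonin libraries, 28.6 and 20.3 CPM in the vector libraries and 15.2 CPM in WT. Of 7 mesothelial genes, 5 reached 3 counts in a library and 4 were highest in the first vector library. The 7 summed to 11.3 and 12.3 CPM in the oridonin libraries, 17.0 and 10.6 CPM in the vector libraries and 8.44 CPM in WT. Msln and Upk3b had 4 and 7 counts in the first vector library, near the floor of 3 counts, and 0 elsewhere. Wt1 was highest in the second oridonin library, at 7.27 CPM against 4.57 CPM in the first vector library. Lung epithelium and thymus markers summed to at most 0.667 and 0.717 CPM in any library. The part of these tissues in the levels of the 10 genes was not tested.

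Both atrial light chains and several stress genes are known from the fetal heart, so genes of the fetal programme were read in the same libraries. Of 5 such genes, 4 were highest in the second vector library, as were 21.2% of all genes tested, and 3 were lowest in the first. Myh7, among the 4, is also on the ventricular list. The remaining gene, Tnni1, did not pass the filter and was highest in the first vector library, with 5 counts. Nppb, B-type natriuretic peptide, had 76.1 and 135 CPM in the oridonin libraries, 55.5 and 418 CPM in the vector libraries and 103 CPM in WT. Acta1, skeletal alpha actin, had 296 and 242 CPM in the oridonin libraries, 63.3 and 431 CPM in the vector libraries and 148 CPM in WT. The library with the highest Myl4 and Myl7 had the lowest Nppb and Acta1. The part of a fetal programme in the levels of Myl4 and Myl7 was not tested.

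The deposited values show less of this contrast between the vector replicates, since each Tet2 column is a mix of both replicates of its group. As deposited, Myl7 stood at 27.1 and 0.637 CPM in the vector libraries, and Bmp10 at 39.1 and 1.71 CPM. Undoing the mix gave 176 and 0.0652 CPM for Myl7, and 187 and 0.326 CPM for Bmp10. Dkk3 stood at 71.9 and 32.4 CPM as deposited, against 107 and 21.7 CPM after the mix was undone. The oridonin values of these genes moved little. The WT column was used as deposited. Its values were whole counts for only 33.5% of genes, so its levels may also be a mix.

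**Figure D4:**
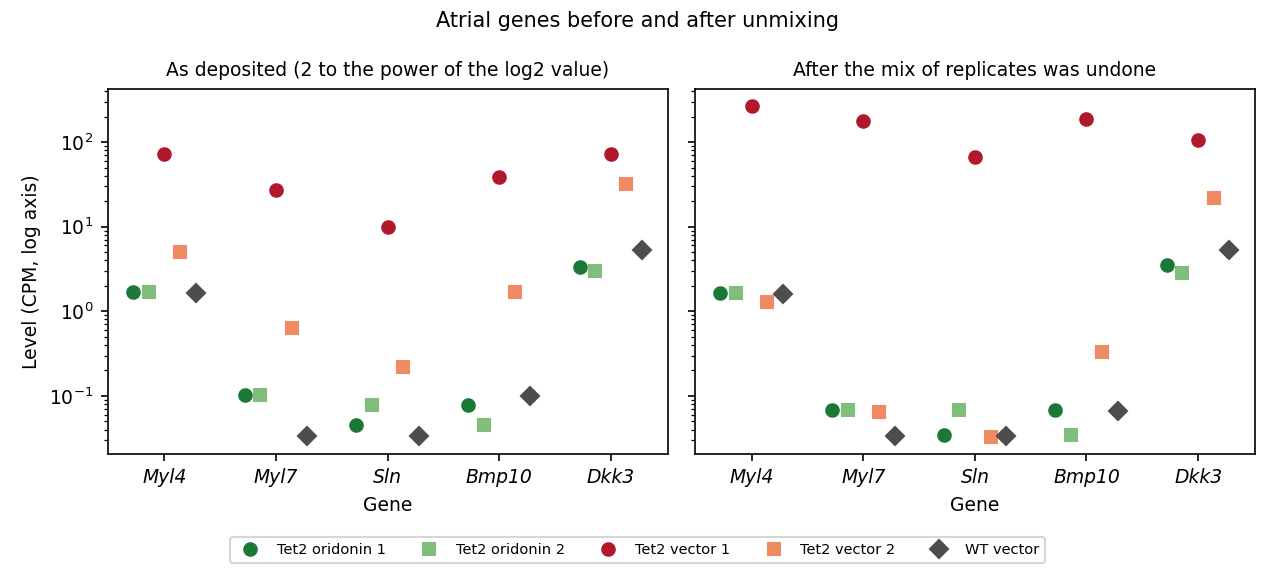
Levels of 5 atrial genes (x axis) in CPM (log y axis) in the 5 libraries, as deposited (left) and after the mix of replicates was undone (right), 1 point per library; the level of 0 is drawn at a fraction of 1 count. In the second vector library Myl7 lies at 0.637 CPM on the left and at 0.0652 CPM on the right.

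For oridonin against vector, the study's question is whether treatment changes the heart in the Tet2+/- group. The choice of genes used these values, so the members get differences without a test. Limma, with Benjamini-Hochberg adjustment over all 12734 genes tested, called 0 genes (0%) at a false discovery rate of 0.05; 331 had an unadjusted p under 0.05, and voom also called 0. Of the 10 members 7 were tested, each with at least 1 CPM in all 5 libraries, and Myl7, Sln and Bmp10 reached 1 CPM in 1 library and were left out by the filter. Of the 7, 2 (Dkk3 and Nr2f2) had both oridonin libraries below both vector libraries, as did 17.8% of all genes tested, and 0 had both above, as did 8.37%.

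The fitted differences for Myl4 and Dkk3 rested on the vector libraries to unlike degrees. Myl4 had a log2 difference of -3.50 (SE 2.22), which was 0.33 (SE 0.53) without the first vector library and -7.33 (SE 0.32) without the second. Dkk3 had -3.93 (SE 0.70), which was -2.78 (SE 0.34) without the first and -5.08 (SE 0.30) without the second. Dkk3 was thus lower in oridonin hearts with either vector library left out, and Myl4 was not. Stard10 had -0.47 (SE 0.44), which was 0.17 without the first vector library and -1.11 without the second, and Gja5 had -0.29 (SE 0.35), which was 0.18 and -0.75. Nr2f2 (-0.24, SE 0.24), Clu (0.13, SE 0.16) and Irx4 (0.00, SE 0.19) had differences about as large as their errors or smaller.

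**Figure D5:**
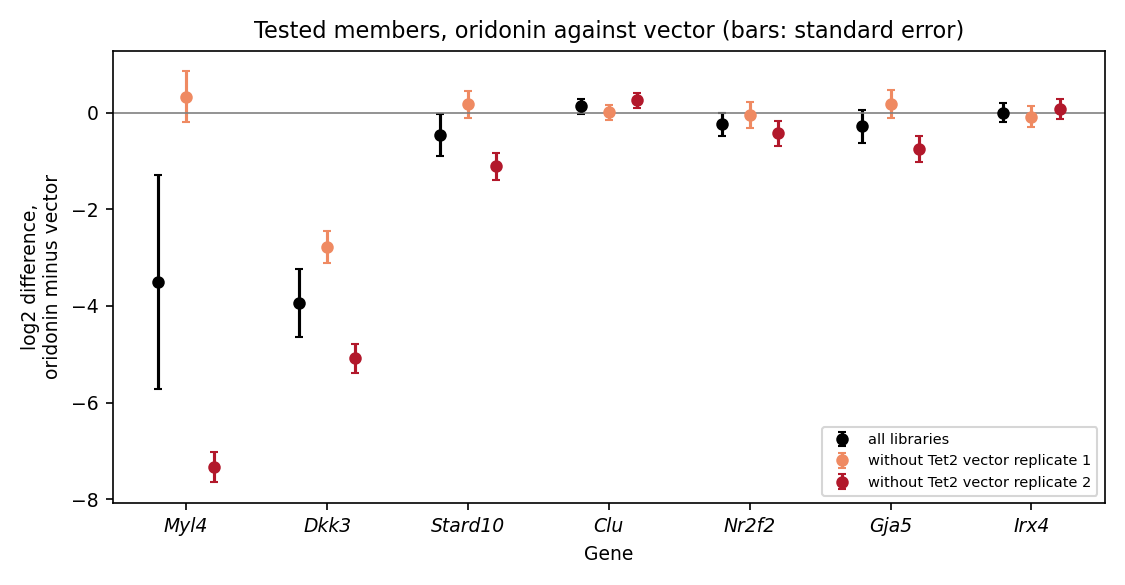
log2 difference of oridonin minus vector (y axis) for the 7 genes that passed the filter (x axis), with all libraries and without each vector library; bars are the standard errors of the fit. Myl4 turns sign when the first vector library is left out, at 0.33 against -3.50, while Dkk3 stays below 0 in all 3.

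For vector against WT, the question is whether hearts of the Tet2+/- group differ from those of the WT group, and there was 1 WT library. Limma called 0 of 12734 genes (0%); 1221 had an unadjusted p under 0.05, and voom called 0. Dkk3 and Irx4, 2 of the 7 genes, had both vector libraries above WT, as did 35.4% of all genes, and Clu alone had both below, as did 32.3%. The log2 difference was 3.18 for Dkk3 (SE 0.86), with 2.03 without the first vector library and 4.33 without the second. For Myl4 it was 3.53 (SE 2.72), with -0.30 and 7.36. For Clu it was -0.70 (SE 0.19), with -0.58 and -0.83, and for Irx4 it was 0.34 (SE 0.23), with 0.42 and 0.26. Stard10 was at 0.39 (SE 0.54), with -0.25 and 1.03, and Gja5 at 0.24 (SE 0.43), with -0.23 and 0.70. Nr2f2 was at 0.06 (SE 0.29).

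For oridonin against WT the levels of the first vector library enter only through the estimate of spread, so this comparison was tested. That library still widens the error, most of all for Myl4, Dkk3, Stard10 and Gja5. Without it the SE was 0.53 in place of 2.72 for Myl4 and 0.34 in place of 0.86 for Dkk3. It was 0.28 in place of 0.54 for Stard10 and 0.29 in place of 0.43 for Gja5. For these genes, a p-value short of the threshold therefore cannot decide whether the levels differ. Limma called 0 of 12734 genes (0%); 791 had an unadjusted p under 0.05, and voom called 0. None of the 7 members passed. Clu had the largest difference against its error, with a log2 difference of -0.57 (SE 0.19) and an adjusted p of 0.766 from limma, and was lower in both oridonin libraries than in WT. Dkk3 had -0.75 (SE 0.86, adjusted p = 0.890), Irx4 0.34 (SE 0.23, adjusted p = 0.846) and Nr2f2 -0.18 (SE 0.29, adjusted p = 0.923). Myl4 had 0.03 (SE 2.72, adjusted p = 0.999), Stard10 -0.08 (SE 0.54, adjusted p = 0.984) and Gja5 -0.05 (SE 0.43, adjusted p = 0.988). A scaling without mitochondrial counts turned the sign of Stard10 and Gja5, so neither has a direction here. Of the 7, 4 (Dkk3, Clu, Nr2f2 and Gja5) had both oridonin libraries below WT, as did 41.7% of all genes, and 2 (Myl4 and Irx4) had both above, as did 31.9%.

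On the values as deposited, where replicates share part of each other, the same fit gave far more calls. It called 76 genes (0.597%) for oridonin against vector, 2312 (18.2%) for vector against WT and 996 (7.82%) for oridonin against WT. Among them were Dkk3 in the comparisons that use vector, and Clu for vector against WT and oridonin against WT, the last with a limma adjusted p of 0.0304 in place of 0.766. The mix makes replicates more alike than the libraries are, with a standard error of 0.10 for Clu in place of 0.19, so these calls are not used as results.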

How the data were processed

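Heart RNA was enriched for poly-A transcripts before library preparation with NEBNext Ultra reagents, per the labels' protocols. The genome build was mm10, per the submitters' processing notes. Aligner, counter, annotation and strand were not given in the sources used here. From the authors came 1 deposited table of log2 values for 17818 symbols in 5 columns, and 0 columns had no sample. The digit before "month" in the sample titles matches the replicate number of the columns and was read as that, since the treatment time is given as 2 months.

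From the values, the log2 scale is that of a count plus 0.5 over the library total in CPM, and each Tet2 column is 0.75 of its own log2 value plus 0.25 of the other replicate's. Undoing this gave whole counts (within 0.01) for 99.92% to 99.94% of genes, against 9.06% to 10.4% as deposited. The WT column, whose values were whole counts for 33.5% of genes, was used as deposited, so its levels may also be a mix. The origin of the mix is unknown.

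Limma 3.58.1 (R 4.3.3, trend, robust) was fitted to the unmixed values, with group as the only term. The fit covered 12734 genes that reached 1 CPM in 2 or more libraries. It was checked on simulated data with large known changes, which does not show what it can call at the spread of these libraries. Between replicates, the chi-square of the counts was 21.7 per gene for oridonin and 45.0 for vector, so neither pair was a repeat of 1 library. Deviations of libraries with the same number correlated at -0.30, so the numbers were not used as pairs. Levels per kilobase use the principal transcript of GENCODE M21, and start regions are RefSeq's. Alternatives were deposited values, voom, TMM scaling, totals without mitochondrial genes, a pseudocount of 2 counts, no filter, a replicate block and each replicate left out.

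The 10 genes and the 19 marker lists were chosen with earlier results of these data known. The rule for names took all members, the 6 most abundant genes of each of the other atrial and ventricular lists, the 3 most abundant of each remaining list, and the 10 genes most like the members; of the lists, some are given by their sums only. Other names, such as Hamp and the genes past the 10-fold measure, were chosen after their values were seen.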

Additional observations from a re-analysis of the deposited data

How the results depend on the processing

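The count of limma calls moved most with the mix of replicates. For oridonin against vector, vector against WT and oridonin against WT, the deposited values gave 76, 2312 and 996 calls where the unmixed values gave 0. Leaving out 1 replicate gave 3 to 40, 2 to 127 and 0 to 26 calls. The numbers do not pair the libraries (correlation -0.30); a replicate block gave 9, 10 and 6 calls, and pairing the numbers crosswise, chosen after seeing the data, gave 44, 978 and 529. TMM scaling, voom, a pseudocount of 2 counts, no filter and totals without mitochondrial genes gave 0 calls in all 3 comparisons. The last moved the median log2 difference of oridonin against WT by 0.11.

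Of the members' values for oridonin against WT, 75 kept direction and side of the threshold, 8 turned sign and 1, Clu on deposited values (-0.57), came past it. Stard10 turned to 0.030 without mitochondrial counts and to 0.37 with the replicate block, and ranged from -0.35 to 0.19 with 1 replicate left out. Gja5 turned to 0.0014 with voom, 0.0035 with TMM, 0.061 without mitochondrial counts and 0.18 with the block. Myl4 turned to -1.89 with the crosswise pairing. The cause was not tested. In each comparison with vector, 76 values moved by less than the spread and 8 moved further, namely Myl4, Dkk3, Stard10 and Gja5 with either vector library left out. With 1 WT library and 2 per Tet2 group, the fit judges WT by the spread of the Tet2 libraries, and 3 members (Myl7, Sln and Bmp10) were under 3 counts in 3 or 4 of the 5 libraries.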

Other observations

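A few genes outside the chamber lists also differed by library. H19, a noncoding RNA of the embryo and of muscle, had 2.80 and 12.8 CPM in the oridonin libraries, 80.1 and 3.39 CPM in the vector libraries and 1.55 CPM in WT. Cenpf, a kinetochore gene, had 14.7 and 12.9 CPM in the oridonin libraries, 70.2 and 5.54 CPM in the vector libraries and 1.25 CPM in WT. The WT library was the lowest of the 5 for both.

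Single genes of the conduction system and the nerve supply of the heart had few counts in WT. Cntn2, an adhesion protein of conduction fibres, had 7.93 and 5.49 CPM in the oridonin libraries, 13.2 and 2.35 CPM in the vector libraries and 0.267 CPM in WT. Dbh, which converts dopamine to noradrenaline, had 3.01 and 1.51 CPM in the oridonin libraries, 5.99 and 4.17 CPM in the vector libraries and 0.0667 CPM in WT, where it had 1 count. The vector replicates thus differed in Cntn2 more than in Dbh. Cntn2 and Dbh were named after their values were seen.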
